A study of Mus musculus with 6 samples.

Results

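The EGF family of ligands and their ErbB receptors were examined in mammary tumours of the mouse. The genes were taken by name: the receptors Egfr, Erbb2 and Erbb3 and the ligands Areg, Ereg, Hbegf, Btc, Tgfa, Egf and Nrg1, 10 in all. Every probe set annotated to exactly 1 of these symbols was used, which gave 17 of the 22626 probe sets on the arrays that are not controls. They belong to 8 of the 10 genes, 8 probe sets to receptors and 9 to ligands. Areg and Nrg1 had no probe set named for them alone in the annotation used here, so neither was analysed here.

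All 6 tumours were raised from the mouse mammary carcinoma line 4T1, and each was measured on 1 Affymetrix expression array. In 3 of them Bptf had been knocked down in the 4T1 cells with short hairpin RNAs carried by the retrovirus MMLV (Bptf KD), and the other 3 came from Control 4T1 cells. In both groups 10000 cells were placed in NSG mice, which the labels also write as Ifrg2r -/-, at the fourth mammary fat pad, and the tumours were taken 21 days later. NSG hosts have no mature lymphocytes or natural killer cells but keep myeloid cells. Necrotic tissue, where present, was cut away before RNA extraction, per the labels. Neither the mice's age and sex, what the Control cells carried, nor the number of Bptf KD clones is given in the sources used here. The tissue is whole tumour from a fat pad, so fewer cells of a type and less RNA per cell cannot be told apart in any level below.

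EGF family ligands are made as membrane-bound precursors and are released by ADAM proteases. Egf, Tgfa and Areg bind Egfr, Hbegf, Btc and Ereg bind Egfr and the receptor Erbb4, and neuregulins such as Nrg1 bind Erbb3 and Erbb4. Binding pairs the receptors. Erbb2 has no known ligand of its own and serves as a partner, and Erbb3 has very weak kinase activity and signals through its partner. The paired receptors recruit adaptors such as Grb2 and Shc1 and switch on the Ras-ERK and PI3 kinase pathways. In the mammary gland Areg acts through Egfr in the stroma during duct growth, and ERBB2 is amplified in a class of human breast cancers.

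In Bptf KD tumours the array levels of Erbb2 lay above those of every Control tumour, and 1 of the 5 Egfr probe sets lay below every Control tumour at 0.484 times the Control mean. Hbegf had 1 of its 2 probe sets above every Control tumour. Such a lack of overlap was found for 23.5% of the family's probe sets and for 18.0% of all probe sets. The brightest of 3 Tgfa probe sets lay below Control 1 and Control 3 but above the tumour labelled Control 2. Ereg and Egf were dim in both groups, and Btc was dim on average over the 6 tumours. With all 6 tumours, no receptor or ligand passed the test across all genes (limma, Benjamini-Hochberg adjusted p under 0.05).

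**Figure D1:**
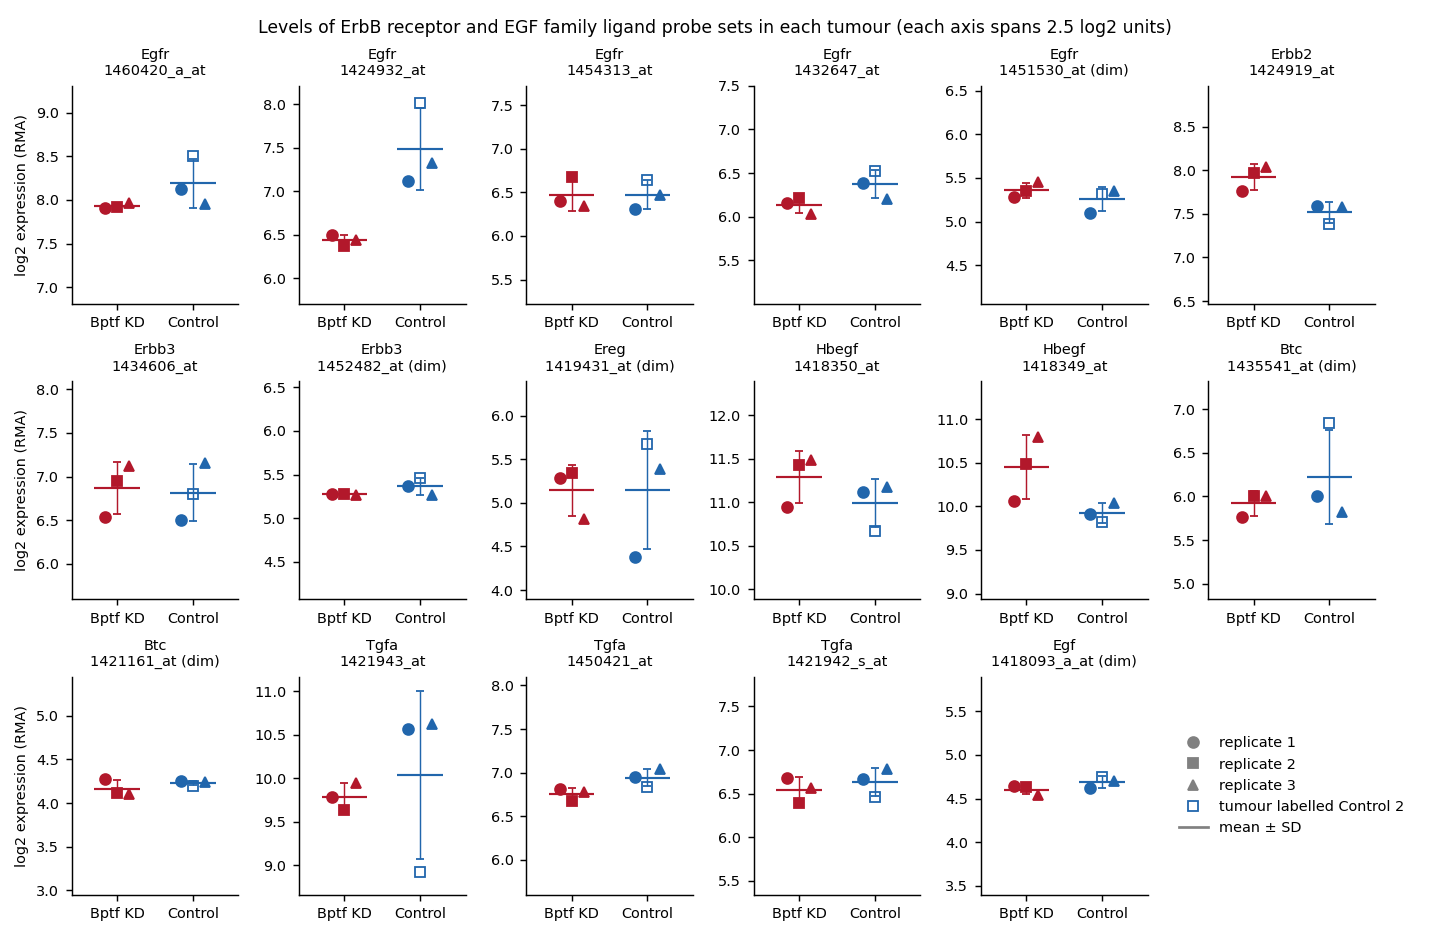
Log2 expression of each of the 17 receptor and ligand probe sets, with Bptf KD tumours left and Control tumours right in each panel. Points are tumours, the open square is the tumour labelled Control 2, and lines and bars give mean ± SD (n = 3 each). Every vertical axis spans 2.5 log2 units, and "dim" marks the 6 probe sets whose mean lies below a log2 level of 6.09.

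The labels were first checked against Bptf, the target of the hairpins and the largest subunit of the chromatin remodelling complex NURF. The brightest of its 4 probe sets read 9.60, 9.56 and 9.99 in Bptf KD tumours, against 10.69, 9.77 and 10.59 in Control tumours 1, 2 and 3. Bptf KD minus Control was -0.63 (SE 0.27), short of the threshold (limma adjusted p = 0.371). Leaving out the tumour labelled Control 2 gave -0.92, which passed (limma adjusted p = 0.0305). That tumour was the lowest Control, so leaving it out favours this result, and the pass is no check of the labels. On the other 3 probe sets the tumour labelled Control 2 lay below every Bptf KD tumour, so Bptf goes against its label there. Arrays of the same group correlated at a mean of 0.984 to 0.987 across genes for the Bptf KD tumours, and at 0.936 for the tumour labelled Control 2 and 0.960 to 0.962 for the other Controls. For Actb the 3-prime control probe set exceeded the 5-prime one, a sign of RNA quality. The log2 excess was 0.76 to 1.05 in Bptf KD tumours, against 0.76, 1.23 and 0.77 in Control tumours 1, 2 and 3. For Gapdh it was -0.04 to 0.04 in Bptf KD tumours, against -0.06, 0.06 and -0.08 in Control tumours 1, 2 and 3. Markers of carcinoma epithelium such as Epcam were measured in all tumours (8 of 8 listed genes above the dim level). Of the lymphocyte markers, 5 of 7 with a probe set were below the dim level, and the other 2, Cd3e and Cd8a, read 6.17 to 6.92.

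The receptors come first. Egfr is the receptor of Egf, Tgfa and Areg, and Erbb2 its partner. Erbb2 lay above Control and the Egfr probe set 1424932_at below it, while the other Egfr probe sets overlapped Control. To show the regions from which these genes start, the 250 bases before each start are printed. They are from RefSeq (GRCm38.p6, plus strand), in lower case with GC boxes in capitals. A GC box is the motif GGGCGG, or CCGCCC on the other strand, and either was found in 32.7% of all 32851 windows of the same length. Of the 10 genes, 6 had such a window. The Egfr window is chr11:16751953-16752202, with 1 GC box and 11 CpG dinucleotides, and the Erbb2 window is chr11:98412234-98412483, with 0 GC boxes and 16 CpG. The median window held 6 CpG.
Egfr: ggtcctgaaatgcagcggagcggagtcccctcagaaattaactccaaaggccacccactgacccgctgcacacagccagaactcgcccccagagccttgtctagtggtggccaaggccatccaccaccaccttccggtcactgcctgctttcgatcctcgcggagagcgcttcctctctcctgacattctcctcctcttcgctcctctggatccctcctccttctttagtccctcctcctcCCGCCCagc
Erbb2: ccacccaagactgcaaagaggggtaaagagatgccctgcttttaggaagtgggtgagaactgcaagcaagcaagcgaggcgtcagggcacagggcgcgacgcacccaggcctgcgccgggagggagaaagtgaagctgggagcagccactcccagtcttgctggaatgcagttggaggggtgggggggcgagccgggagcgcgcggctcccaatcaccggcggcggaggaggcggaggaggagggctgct

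Egfr was covered by 5 probe sets, which did not move alike. The probe set 1424932_at read 6.50, 6.37 and 6.44 in Bptf KD tumours, against 7.12, 8.01 and 7.32 in Control tumours. All Bptf KD tumours lay below all Controls, and the tumour labelled Control 2 was the highest of the 6. The means were 6.44 ± 0.07 in Bptf KD and 7.48 ± 0.47 in Control tumours (SD, n = 3 each), a difference of -1.05 (SE 0.23) or 0.484-fold. With all tumours this did not pass in the fit over all probe sets (limma adjusted p = 0.157, unadjusted p = 0.00313). Permuting the 6 tumours exactly (two-sided) gave p = 0.1, the lowest value that 3 against 3 allows. Without the tumour labelled Control 2 the difference was smaller, at -0.78 (SE 0.11), and passed (limma adjusted p = 0.0263; range over the alternatives 0.00594 to 0.477). That tumour was the Control farthest from the others, and its removal lowers the spread. The difference was negative under all 14 alternatives run on it. This probe set was singled out after its values were seen.

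The brightest Egfr probe set, 1460420_a_at, which stood for the gene in the gene-level test, read 7.91, 7.92 and 7.96 in Bptf KD tumours, against 8.12, 8.50 and 7.95 in Control tumours. The groups overlapped, since Control 3 lay among the Bptf KD tumours. The difference was -0.26 (SE 0.16; limma adjusted p = 0.568), and -0.11 without the tumour labelled Control 2. The probe set 1432647_at had a difference of -0.24, 1454313_at of 0.00 and the dim 1451530_at of 0.10, and in all 3 the groups overlapped. Within each tumour the log2 ratio of 1424932_at to 1460420_a_at was -1.41, -1.55 and -1.52 in Bptf KD tumours, against -1.0, -0.49 and -0.63 in Control tumours. These ratios did not overlap (exact two-sided permutation p = 0.1, the lowest possible). Since 1424932_at was chosen after its values were seen, the ratio is given as a description. A ratio within a tumour does not depend on a constant scaling of its array, but it can depend on normalisation by quantiles. The annotation gives 1424932_at and the dim 1451530_at the same sequence record, while 1460420_a_at has another. Which transcripts each probe set reads was not analysed here.

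Fat cell and fibroblast markers moved with the Egfr probe set. The mean level of the 10 adipocyte markers tested was 6.84 to 7.77 in Bptf KD tumours, against 9.69 to 10.55 in Control tumours. All 10 had groups that did not overlap, and 6 fell by limma over all genes (9 without the tumour labelled Control 2). Of all genes tested, 8.17% were lower without overlap and 0.660% were called lower. Without that tumour, 4.46% were called in either direction. Car3, a carbonic anhydrase of fat and muscle, had a difference of -3.66 and Fabp4, a fatty acid binding protein of fat cells, of -2.85. The 11 fibroblast markers tested averaged 10.85 to 11.15 in Bptf KD tumours, against 12.06 to 12.32 in Control tumours. Of these, 5 fell, among them the matrix genes Dcn (-1.70) and Col1a1 (-1.81), and 10 did not overlap. Without the tumour labelled Control 2, 6 fell. The shares of all genes are those given above. Stromal cells and fat cells also express Egfr. The part of these cells in the Egfr difference was not tested.

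Erbb2 had 1 probe set. It read 7.76, 7.97 and 8.04 in Bptf KD tumours, against 7.59, 7.38 and 7.58 in Control tumours. All Bptf KD tumours lay above all Controls. The means were 7.92 ± 0.15 and 7.52 ± 0.12 (Bptf KD and Control, SD, n = 3 each), a difference of 0.41 (SE 0.13) or 1.33-fold. In the gene-level test limma gave an adjusted p of 0.261 and an unadjusted p of 0.0184. Without the tumour labelled Control 2 the difference was 0.34 (limma adjusted p = 0.144; range over the alternatives 0.0654 to 0.670), and it was positive under all 18 alternatives. Per tumour, the log2 ratio of Erbb2 to Egfr 1424932_at was 1.26, 1.6 and 1.6 in Bptf KD tumours, against 0.47, -0.63 and 0.26 in Control tumours, a pair chosen after its values were seen and given as a description. Only the change of this ratio between groups can be read, not its level, since it joins different probes.

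Erbb3, the neuregulin receptor, read 6.54, 6.95 and 7.12 on its brighter probe set in Bptf KD tumours, against 6.50, 6.80 and 7.15 in Control tumours. The 2 groups covered nearly the same range, with a difference of 0.05 (SE 0.22; limma adjusted p = 0.947), or 0.045 without the tumour labelled Control 2, whose sign turned in 4 of 16 alternatives. The second probe set was dim, at 5.27 to 5.28 in Bptf KD tumours and 5.26 to 5.46 in Control tumours. Carcinoma cells of the breast express Erbb2 and Erbb3, and markers of carcinoma epithelium were read beside them. Their list mean was 11.16 to 11.29 in Bptf KD tumours, against 10.41 to 11.14 in Control tumours, with 7 of 8 genes positive, a median difference of 0.38 and 0 called by limma (2 higher at an unadjusted p under 0.05). The median was 0.50 when the tumour labelled Control 2 was left out, also with 0 called. Epcam, an adhesion molecule of epithelial cells, differed by 0.96 and was the only gene of the 8 whose groups did not overlap (11.8% of all genes were higher without overlap). The splicing factor Esrp1 differed by 1.34, with overlapping groups. The groups also overlapped for Cldn7 (1.12), Krt7 (0.52), Cdh1 (0.23), Krt18 (0.19) and Krt8 (0.02), and for Krt19, which was lower (-0.33). The part of the epithelial share in the Erbb2 difference was not tested.

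**Figure D2:**
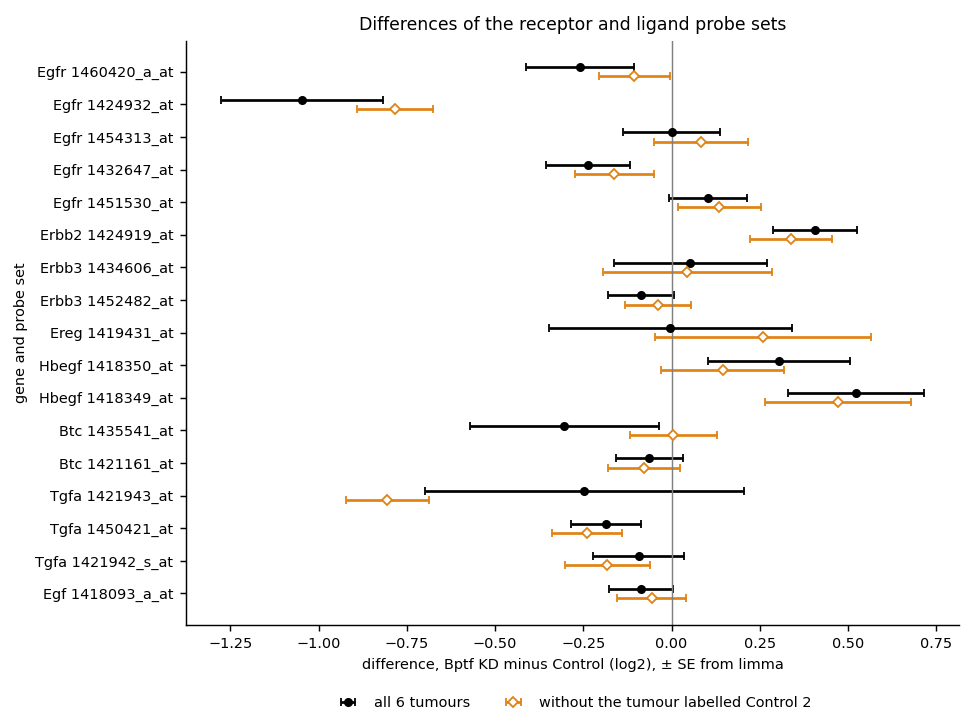
Differences of the 17 probe sets, Bptf KD minus Control, on the log2 scale, with bars of ± SE from limma over all probe sets. Filled circles use all 6 tumours and open diamonds leave out the tumour labelled Control 2. The difference of Egfr 1424932_at was -1.05 with it and -0.78 without it, and that of Tgfa 1421943_at was -0.25 with it and -0.81 without it.

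Among the ligands, Tgfa is a high-affinity ligand of Egfr made by many carcinomas. The 250 bases before its start (RefSeq, GRCm38.p6, chr6:86194972-86195221, plus strand) are shown because its level depended most on which tumours were compared. They hold 2 GC boxes, in capitals as above, and 19 CpG.
Tgfa: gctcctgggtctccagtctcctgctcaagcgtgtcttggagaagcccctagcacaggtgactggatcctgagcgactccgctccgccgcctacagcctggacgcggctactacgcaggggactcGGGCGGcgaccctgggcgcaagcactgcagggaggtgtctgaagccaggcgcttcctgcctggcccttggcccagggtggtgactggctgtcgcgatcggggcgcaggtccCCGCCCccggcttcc

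The brightest Tgfa probe set, 1421943_at, read 9.79, 9.64 and 9.94 in Bptf KD tumours, against 10.57, 8.92 and 10.62 in Control tumours. The Bptf KD tumours lay close together, below Control 1 and Control 3 and above the tumour labelled Control 2, the lowest of the 6. The means were 9.79 ± 0.15 in Bptf KD and 10.04 ± 0.97 in Control tumours (SD, n = 3 each), a difference of -0.25 (SE 0.44) that did not pass (limma adjusted p = 0.863). Without the tumour labelled Control 2, Tgfa fell in Bptf KD tumours, with a difference of -0.81 (SE 0.13) or 0.572-fold (limma adjusted p over all genes = 0.0250; 0.0250 to 0.991 across the 18 alternatives). That tumour was the lowest Control, so leaving it out favours this result, and without Control 1 or Control 3 the difference was 0.02 or 0.05. Of the other Tgfa probe sets, 1450421_at read 6.81, 6.68 and 6.78 in Bptf KD tumours, against 6.95, 6.84 and 7.04 in Control tumours. There all Bptf KD tumours lay below all Controls, by a difference of -0.19 (SE 0.10; limma adjusted p = 0.544), or -0.24 without the tumour labelled Control 2 (limma adjusted p = 0.221). The third, 1421942_s_at, had a difference of -0.09 with overlapping groups, or -0.18 without that tumour.

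Hbegf, a heparin-binding ligand that macrophages and injured epithelia make, was bright on both of its probe sets. Its brighter one, 1418350_at, read 10.95, 11.43 and 11.49 in Bptf KD tumours, against 11.12, 10.67 and 11.17 in Control tumours. The groups overlapped through Bptf KD 1, and the difference was 0.30 (SE 0.21; limma adjusted p = 0.606), or 0.15 without the tumour labelled Control 2. The other, 1418349_at, read 10.06, 10.49 and 10.79 in Bptf KD tumours, against 9.91, 9.82 and 10.04 in Control tumours. Here all Bptf KD tumours lay above all Controls, Bptf KD 1 only narrowly. The difference was 0.52 (SE 0.19) or 1.44-fold, and it did not pass (limma adjusted p = 0.355; range over the alternatives 0.220 to 0.746), nor did the 0.47 without the tumour labelled Control 2 (limma adjusted p = 0.243). The Hbegf difference was positive under all 18 alternatives of the gene-level test and under all 14 run on 1418349_at. Among the 18, the probe set with the largest SD was 1418349_at, and the mean of all probe sets drew on both. The 9 macrophage markers had a list mean of 11.85 to 12.12 in Bptf KD tumours, against 11.70 to 12.03 in Control tumours. In this list the groups did not overlap for 3 higher genes, C1qa, C1qb and C1qc (11.8% of all genes), and 1 lower gene, Mrc1 (8.17% of all genes). Limma called 0 of the 9. The part of macrophages in the Hbegf levels was not tested.

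The remaining ligands were dim on average. Btc, betacellulin, read 5.76, 6.0 and 6.0 on its brighter probe set in Bptf KD tumours, against 6.01, 6.84 and 5.82 in Control tumours. Its mean of 6.07 fell just short of the dim level of 6.09, and the tumour labelled Control 2 was the only one clearly above the rest. The difference was -0.30 with all tumours and 0.00 (0.005) without that one, so the whole difference came from it. Its second probe set read 4.10 to 4.28 in Bptf KD tumours and 4.2 to 4.25 in Control tumours.

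Ereg, epiregulin, read 5.28, 5.34 and 4.81 in Bptf KD tumours, against 4.38, 5.67 and 5.39 in Control tumours, with a difference of 0.00 (-0.003; SE 0.34). Control 1 was the lowest and the tumour labelled Control 2 the highest of the 6, so the Controls held the whole range. Egf itself read 4.54 to 4.64 in Bptf KD tumours and 4.62 to 4.75 in Control tumours, the smallest spread of the 17 probe sets (SD 0.07 over 6 tumours). The deposited values have no detection calls, so the share of background in such low values is not known.

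**Figure D3:**
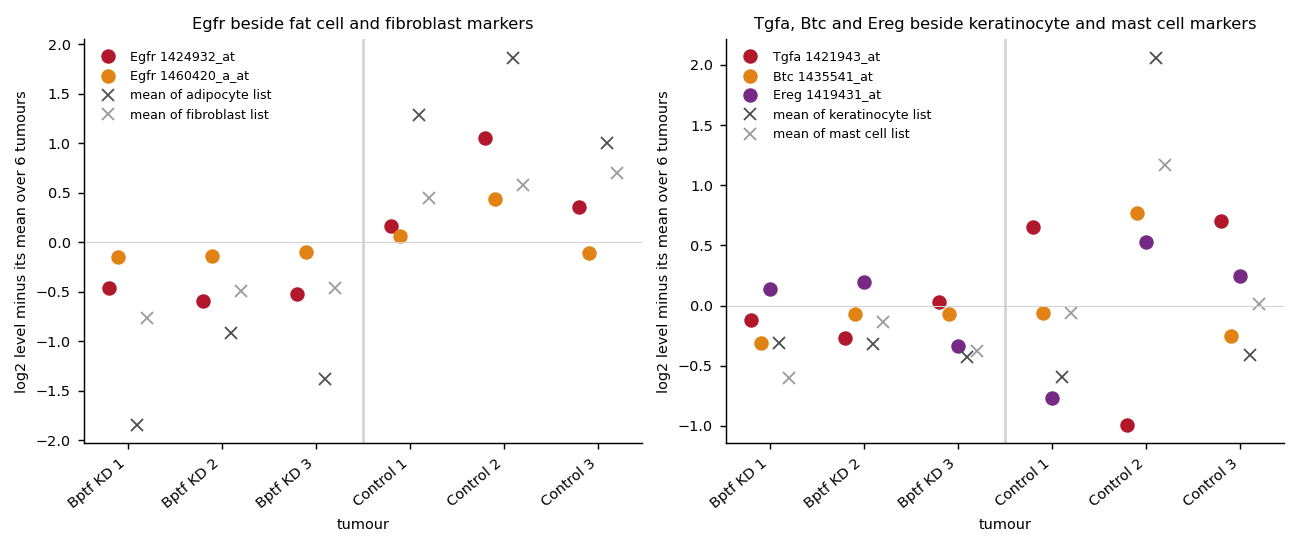
Log2 levels per tumour, each minus its own mean over the 6 tumours, for Egfr beside the adipocyte and fibroblast list means (left) and for Tgfa, Btc and Ereg beside the keratinocyte and mast cell list means (right). Circles are probe sets and crosses are list means. In the tumour labelled Control 2, Egfr, Btc and Ereg were at their highest and Tgfa at its lowest, and the keratinocyte mean was 9.67 against 7.02 to 7.30 in the other 5 tumours.

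The tumour labelled Control 2 lay apart from the other Controls on some probe sets of this family, as it did elsewhere on the array. It held the highest value of the 6 tumours on 7 of the 17 probe sets and the lowest on 4. The shares of all probe sets for these 2 counts were not computed. Set against the mean of Control 1 and Control 3, Btc was 0.93 higher there, Egfr 1424932_at 0.79 and Ereg 0.79 higher, and Tgfa 1421943_at differed by -1.68. These are the 4 of 17 probe sets that lay at least 0.5 away, where 26.9% of all probe sets did. Tgfa was the 1 that lay at least 1 away (7.40% of all). By these counts the family did not stand out from the array. Skin epithelium makes several of these ligands, and the keratinocyte list mean was 7.19 to 7.30 in Bptf KD tumours, against 9.67 in the tumour labelled Control 2 and 7.02 and 7.2 in Control 1 and Control 3. That mean rests on the 5 tested genes of the 12 listed. Of these, Krt5 read 8.48 in that tumour and 6.46 to 6.96 in the other 5, and Krt6a 7.33 against 6.26 to 6.46. Flg, filaggrin, a protein of the skin barrier, read 10.21 in that tumour and 3.23 to 3.40 in the other 5. It was dim on average and is not in the mean. Ivl, listed but dim as well, read 5.79 there and 5.54 to 5.79 in the other 5. Mast cell markers averaged 6.53 to 7.0 in Bptf KD tumours, against 8.30 in the tumour labelled Control 2 and 7.07 and 7.15 in the other Controls. Skeletal muscle markers averaged 6.36 to 9.27 in Bptf KD tumours, against 11.43 in that tumour and 8.89 and 6.50 in the other Controls. Cbl, a ubiquitin ligase that marks active Egfr for breakdown, read 8.36, 7.63 and 8.59 in Bptf KD tumours, against 9.44, 6.21 and 9.05 in Control tumours. Flg, Ivl and Cbl were picked with their values known. The part of these cells and of RNA quality in the receptor and ligand levels was not tested.

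Counted together, the receptors and ligands did not stand out from the array. Of the 9248 genes tested, 75 (0.811%) passed the threshold, 0.151% higher and 0.660% lower, and of the 5 family genes tested (Egfr, Erbb2, Erbb3, Hbegf and Tgfa) limma called 0, with 1, Erbb2, at an unadjusted p under 0.05, a level that 13.5% of all genes reached (7.66% higher, as Erbb2 was). Their median difference was 0.05, against 0.06 over all genes tested. In the fit over all 22626 probe sets, limma called 0 of the 17 family probe sets (0.208% of all, 0.0133% higher and 0.194% lower), and 3 of the 17 had an unadjusted p under 0.05, where 11.8% of all did. Of these, Erbb2 and Hbegf 1418349_at were higher (6.40% of all) and Egfr 1424932_at was lower (5.41% of all). The groups did not overlap in 4 of the 17, namely these 3 and Tgfa 1450421_at, where 18.0% of all probe sets did not overlap (9.81% higher and 8.15% lower). The shares of 4 in 17 (23.5%) and 18.0% lie close together. The median difference of the 17 was -0.09, with 11 negative, against 0.02 over all probe sets. Without the tumour labelled Control 2, limma called 1 of the 5 genes (Tgfa; 4.46% of all genes) and 2 of the 17 probe sets (Tgfa 1421943_at and Egfr 1424932_at; 2.40% of all), each lower in Bptf KD tumours. Limma called the same numbers, 1 of 5 and 2 of 17, with the keratinocyte list as a covariate (5.11% of all genes and 2.97% of all probe sets) and with array weights (18.1% and 12.0%). Neither setting is separate from leaving out the tumour labelled Control 2. Its keratinocyte list mean was 9.67, against 7.02 to 7.30 in the others, and its array weight was the lowest, at 0.15. The array weights had not converged.

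**Figure D4:**
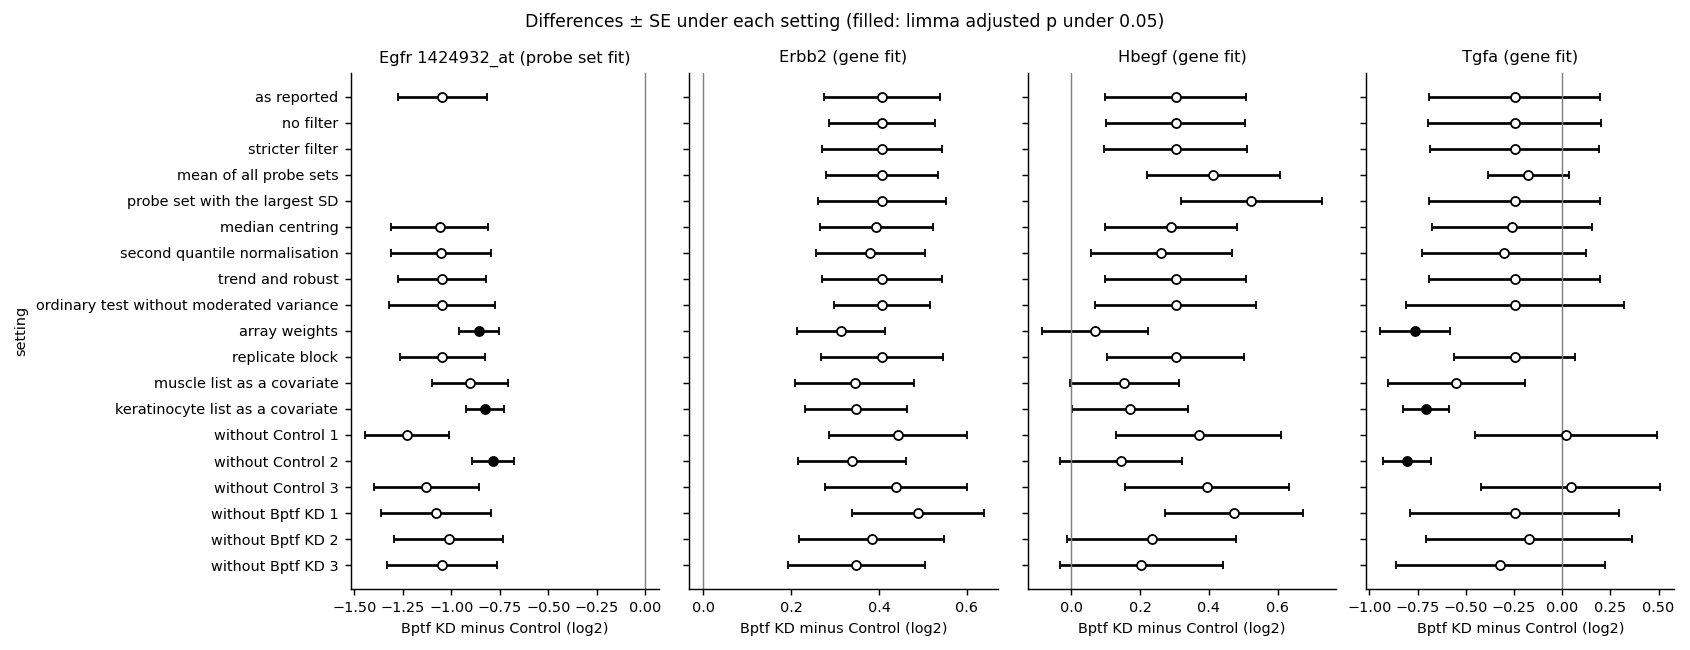
Differences of Egfr 1424932_at, Erbb2, Hbegf and Tgfa, Bptf KD minus Control (log2), ± SE under each setting, with filled circles where limma's adjusted p was under 0.05. Erbb2 and Hbegf stayed above 0 and Egfr 1424932_at below 0 in every setting drawn, none of the Erbb2 and Hbegf values was called, and Tgfa was between -0.81 and 0.05.

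The ErbB pathway beyond these genes was read from 5 lists of 79 genes, of which 64 had a probe set of their own and 58 were tested. Limma called 0 of them with all tumours. At an unadjusted p under 0.05, 9 were higher (7.66% of all genes) and 2 lower (5.82% of all genes) in Bptf KD tumours, and the groups did not overlap in 11 higher genes (11.8% of all) and 4 lower ones (8.17% of all), or 25.9% of the 58, where 20.0% of all genes tested did not overlap. Positive differences were found for 41 (70.7%) and negative ones for 17, where 59.6% of all genes tested were positive. In 1 of the 58, Epgn, a group mean lay below the dim level. Over the other 57, 8 were higher at an unadjusted p under 0.05 and 10 were higher without overlap. When the tumour labelled Control 2 was left out, limma called 1 of the 58 higher (Grb2) and 2 lower (Adam19 and Fosl1), where it called 4.46% of all genes. In each of these genes that tumour was the Control nearest the Bptf KD tumours, so leaving it out favours the call.

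Epgn, epigen, is another ligand of Egfr, and in the mouse gene table (GRCm38.p6) Epgn, Ereg, Areg and Btc follow one another on the chromosome. It read 6.03, 7.74 and 7.34 in Bptf KD tumours, against 5.52, 5.85 and 5.43 in Control tumours. All Controls lay below the dim level of 6.09, and so did Bptf KD 1, and the groups did not overlap. Epgn passed the filter on dim genes only through the Bptf KD tumours, so its difference of 1.44, which limma did not call, is given as a description. Its neighbours Ereg and Btc had differences of 0.00 and -0.30. The other family genes with a probe set, Erbb4, Nrg3 and Nrg4, were below the dim level.

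Of 6 genes of ligand release tested, the metalloproteases Adam12 (-0.90) and Adam19 (-0.80) had groups that did not overlap and unadjusted p of 0.0142 and 0.0187. Adam19, which cleaves neuregulins, read 8.54, 8.55 and 8.80 in Bptf KD tumours, against 9.54, 8.86 and 9.89 in Control tumours. Without the tumour labelled Control 2 it passed (-1.09, limma adjusted p = 0.0214). Adam17, the main sheddase of Tgfa, Areg and Hbegf, differed by 0.23. The fibroblast markers were also lower in Bptf KD tumours (list median -0.91), and the part of fibroblasts in the Adam12 and Adam19 differences was not tested.

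Among 10 tested genes that restrain or degrade the receptors, 8 had positive differences, with a median of 0.12. Rnf41, a ubiquitin ligase that lowers Erbb3, read 9.52, 10.01 and 9.96 in Bptf KD tumours, against 9.24, 9.28 and 9.12 in Control tumours, a difference of 0.62 (SE 0.16; limma adjusted p = 0.173), or 0.65 without the tumour labelled Control 2 (limma adjusted p = 0.0777). Errfi1, which binds and inhibits Egfr and Erbb2, differed by 0.48, and Lrig1, a membrane protein that promotes receptor breakdown, by 0.35. In both the groups overlapped, and neither was called. Without that tumour the values were 0.32 and 0.26.

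Of 24 tested adaptors and first signalling steps, 19 were positive, with a median of 0.11. Grb2, the adaptor that links active receptors to Ras, read 9.61, 9.75 and 9.89 in Bptf KD tumours, against 8.99, 9.44 and 9.05 in Control tumours. The groups did not overlap, with a difference of 0.59 (SE 0.16; limma adjusted p = 0.191), and without the tumour labelled Control 2 it passed (0.73, limma adjusted p = 0.0295). The adaptor Shc1 differed by 0.45 without overlap, and Grb7, an adaptor that binds Erbb2, by 0.50 with groups that met at 8.01. Without that tumour they differed by 0.58 and 0.55, and neither was called.

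The 17 tested ERK feedback and target genes were mixed, with 10 positive, 7 negative and a median of 0.19, or 0.00 (-0.003) without the tumour labelled Control 2. Spry1, a feedback inhibitor of receptor signalling, read 10.62, 11.15 and 11.52 in Bptf KD tumours, against 10.20, 9.27 and 9.84 in Control tumours. The groups did not overlap, and the difference of 1.33 (SE 0.31; unadjusted p = 0.00355) did not pass (limma adjusted p = 0.129, or 0.0696 without the tumour labelled Control 2). Fos, a transcription factor induced through ERK, differed by 0.67 without overlap and Phlda1 by 0.46 with overlapping groups, and neither was called. Fosl1, a relative of Fos, went the other way, at 9.43, 9.23 and 9.27 in Bptf KD tumours, against 10.56, 9.15 and 10.22 in Control tumours. Its difference of -0.67 did not pass with all tumours (limma adjusted p = 0.475), and without the tumour labelled Control 2 it did (-1.08, limma adjusted p = 0.0176). Fosl1 was chosen after its values were seen.

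**Figure D5:**
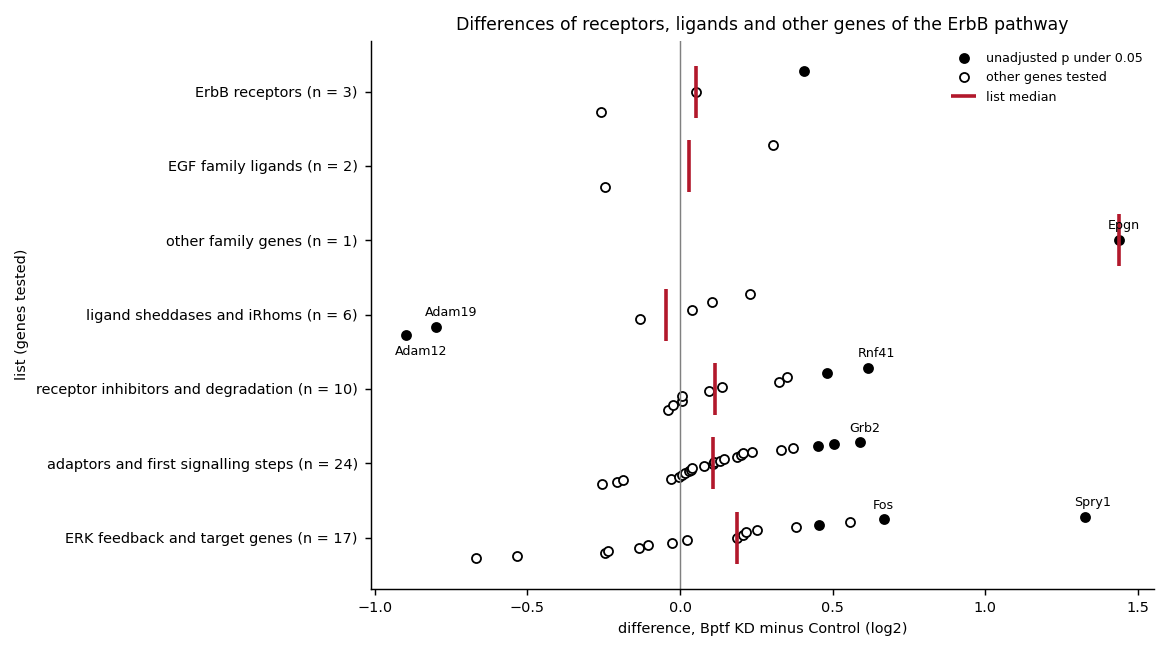
Differences, Bptf KD minus Control (log2), of the genes tested among the ErbB receptors, the EGF family ligands and the 5 pathway lists. Circles are genes, filled where the unadjusted p was under 0.05, and red bars are list medians. Epgn at 1.44 and Spry1 at 1.33 lie farthest to the right and Adam12 at -0.90 farthest to the left.

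The genes whose levels ran most like those of the leading receptor and ligand were found by the root mean square distance between levels over the 6 tumours, each centred on its own mean. For Erbb2, the receptor with the smallest p in the gene-level test, where the brightest probe set stands for Egfr, they were the fucosidase Fuca2 at a distance of 0.039, the heparan sulfate glycosyltransferase Extl3 at 0.043 and serine racemase Srr at 0.047, where the median gene lay at 0.288. For Hbegf, the ligand with the smallest p in the same test, they were the membrane-bound matrix metalloproteinase Mmp14 at 0.066, Shprh at 0.067 and Tmem19 at 0.077, where the median gene lay at 0.333. Mmp14 read 11.34, 11.78 and 11.87 in Bptf KD tumours, against 11.63, 11.05 and 11.46 in Control tumours, so that it, too, was lowest in the tumour labelled Control 2. With 6 tumours and 9248 genes, distances this small are descriptions of these arrays.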

How the data were processed

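The deposited values are log2 expression values that the authors made with RMA, per the submitters' processing notes, a method that corrects background, normalises by quantiles and summarises probe sets. The sources used here do not give the log base, which was taken as 2, since values ran from 2.98 to 15.17. Per the labels' protocols, 500 ng of total RNA per tumour was labelled. No column pools tumours. Of 22690 probe sets, 64 are controls, and 20380 of the rest had 1 gene, 691 several and 1555 none in GEO's platform annotation. Symbols were matched by Entrez identifier to RefSeq (GRCm38.p6), where 29 found no match.

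At gene level, the probe set with the highest mean stood for a gene, and those in the dimmest 30% (log2 6.09) were left out, which left 9248 of 12393 genes. A second fit took all 22626 probe sets. Both used limma 3.58.1 in R 4.3.3 (lmFit, eBayes, no covariate, Benjamini-Hochberg, threshold 0.05). The gene-level fit was also run on simulated data with the same spread in every array. That run does not cover a deviant array such as that of the tumour labelled Control 2. Differences are Bptf KD minus Control. Permutation tests used scipy 1.17.1. The labels call the tumours biological triplicates, and their number limits the precision. Named genes were the 10 family genes, Bptf, up to 3 genes with the smallest p per pathway list, and the 3 genes most alike in pattern. The 2 genes with the smallest p were named in the adipocyte, fibroblast and keratinocyte lists, and all 8 genes in the carcinoma epithelium list. Macrophage genes were named where their groups did not overlap, and lymphocyte genes where they were above the dim level. The mast cell and muscle lists are given by their means, and the endothelium and neutrophil lists are not described here. Fosl1, Cbl, Flg and Ivl fall outside these rules and were added with their values known. The genes and lists were chosen with earlier results of these data known. Alternatives were other filters, probe set rules, scalings, variance models, array weights, the replicate block, muscle or keratinocyte covariates, and leaving out each tumour.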

Additional observations from a re-analysis of the deposited data

How the results depend on the processing

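The count of all genes past the threshold was 75 (14 higher, 61 lower), and it moved by over 1.5 times to 42 with the stricter filter (dimmest 50% left out), 1 with an ordinary test without moderated variance, 1676 with array weights (986 higher; the weights had not converged), 49 or 473 (205 higher) when the muscle or the keratinocyte list was a covariate, and 0 to 412 when 1 tumour was left out, at 412 without the tumour labelled Control 2 (179 higher), 10 when Control 3 was left out, and 2, 6 and 0 when Bptf KD 1, 2 and 3 were. Of the 5 family genes, 0 were called, except 1, Tgfa, with array weights (-0.76), with the keratinocyte list as a covariate (-0.71) and without the tumour labelled Control 2 (-0.805), so the range was 0 to 1 over the tumours left out. Each of these settings lessens or removes the part of the tumour labelled Control 2, so they are not separate results. Of the 17 probe sets, 0 were called, except 2 under the same settings, Egfr 1424932_at (-0.86 with array weights, -0.83 with the keratinocyte covariate) and Tgfa 1421943_at, with a range of 0 to 2 over the tumours left out. The sign of Erbb3 turned with array weights (-0.24), the muscle covariate (-0.0587), without Control 1 (-0.105; range over tumours left out up to 0.22) and without Bptf KD 3 (-0.07), and that of Tgfa without Control 1 (0.02) and without Control 3 (0.045). The cause was not tested. Egfr, Erbb2 and Hbegf kept their direction under all 18 alternatives, but the sizes of Egfr (-0.26) and Hbegf (0.30) moved, to -0.0665 and 0.0685 with array weights, -0.14 and 0.17 with the keratinocyte covariate, -0.16 and 0.15 with the muscle covariate, and -1.05 and 0.52 on the probe sets with the largest SD.

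Replicate numbers are shared by both groups, and deviations from the group means of same-numbered tumours correlated at 0.005, 0.279 and 0.372, so the numbers were not taken to pair the tumours, and not every tumour correlated best with its own number. With the replicate number as a block, 107 genes were called, 0 of the 5 family genes and 0 of the 17 probe sets. RMA values carry no detection call, which limits what the 6 dim probe sets of Egfr, Erbb3, Ereg, Btc and Egf can show. The tests of Egfr 1424932_at and Hbegf 1418349_at under the alternatives were added after seeing the data.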
